A study of Mus musculus with 18 samples.

Results

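Bone-marrow-derived macrophages of IL-10 -/- mice were compared at 30 min and at 10 min after the start of stimulation, with both treatments of the study pooled. The 12 arrays of these times were taken out of 18 by the time in their titles, 6 at 30 min and 6 at 10 min. At each time 3 arrays were from cells given LPS at 100 ng/ml and 3 from cells given the same LPS plus IL-10 at 10 ng/ml, and each 30 min array was paired with the 10 min array of its treatment and replicate number. All groups shared the IL-10 deletion and 7 days of culture with CSF-1 from L-cell conditioned medium, which the labels describe as giving cultures that were almost entirely mature macrophages. CSF-1 was absent during stimulation. Per the labels the mice were of one age and sex, neither of which is given, and a replicate number stood for a complete experiment, run one after the other. Both treatments of a number came from the same experiment, so the 6 pairs rest on 3 experiments. Cells without LPS are not analysed here, so every value is a change within the first 30 min of LPS and not a change from rest. RNA was total RNA from whole cultures, in which fewer cells of a type and less RNA per cell cannot be told apart.

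LPS is sensed by TLR4, which signals through MyD88 and TRIF to NF-kB and the MAP kinases and switches on genes in waves. The first wave, called immediate early or primary response genes, needs no new protein and holds transcription factors, chemokines, cytokines and the inhibitors that later shut the response down. IL-10 acts through its own receptor and the transcription factor STAT3, which induces Socs3 and other genes and restrains the inflammatory output of macrophages. IL-10-deficient macrophages make none of their own functional IL-10, so that added IL-10 is the only source.

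The arrays held 45101 probe sets, of which 27110 were bright enough to be tested, standing for 12527 named genes. A probe set was called when limma, fitted over the 12 arrays with the pair as a block, gave an adjusted p under 0.05. Called higher at 30 min were 146 probe sets (0.539% of those tested) and called lower were 63 (0.232%). With 1 gene symbol these named 104 rising genes (0.830% of named genes) and 36 falling genes (0.287%). The rising probe sets had a median log2 change, 30 minus 10 min on the log2(signal + 16) scale, of 0.69 with a range of 0.25 to 3.24, and 47 were over 1. The falling ones had a median of -0.58, from -1.39 to -0.26, and 5 fell by more than 1. Over all tested probe sets the median log2 change was -0.03. Of the 146, 136 were higher in all 6 pairs, and all 63 falling ones were lower in all 6, against 2.80% and 4.36% of all tested probe sets. In 31 of the rising and 19 of the falling sets the 6 signals at 30 min did not overlap the 6 at 10 min, against 0.166% and 0.299% of all tested. The calls rest on these same pairs, so such counts describe the called sets and are no separate support. Without the pairs as a replicate block 15 probe sets were higher and 1 lower, and with no intensity trend in the variance 12 and 4 were called. Leaving out experiment 1 gave 98 and 21 calls, leaving out experiment 2 gave 78 and 18, and leaving out experiment 3 gave 125 and 33.

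**Figure D1:**
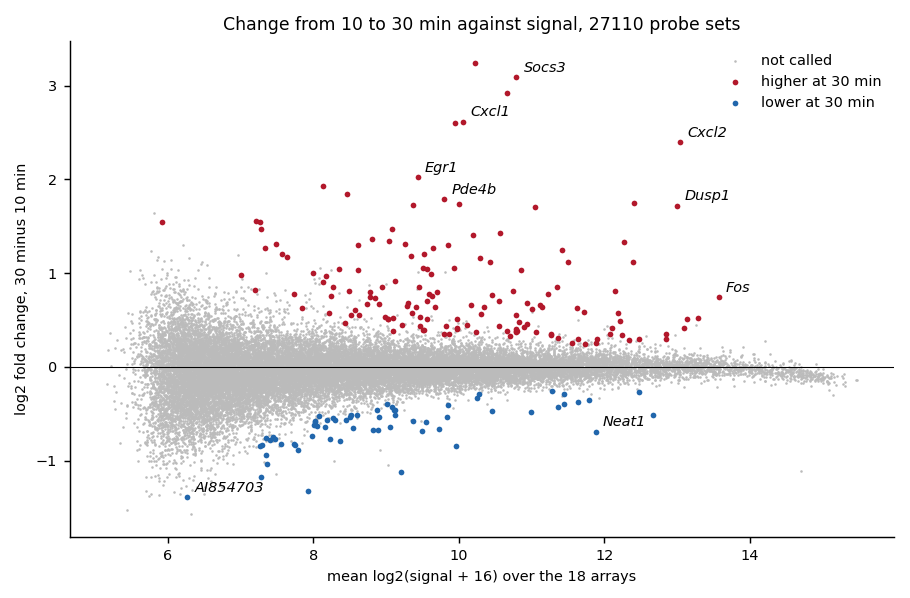
Each point is a probe set, with its mean log2(signal + 16) over the 18 arrays across and its log2 change from 10 to 30 min, both treatments pooled, upwards. The 146 called higher (red) reach 3.24 at Socs3, and the 63 called lower (blue) reach -1.39 at AI854703.

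The arrays of both times were alike in scale, with a trimmed mean signal of about 500 on each as deposited. Median signals were 76.9 to 93.1 at 10 min and 77.3 to 86.9 at 30 min, lower at 30 min in 4 of 6 pairs. The ratio of the 3' to the 5' control probe sets of Actb, a sign of RNA integrity, was 1.14 to 1.31 at 10 min and 1.12 to 1.17 at 30 min. It was lower at 30 min in 6 of 6 pairs, and its part in the results was not tested. The same ratio for Gapdh was 0.762 to 0.855 and 0.775 to 0.847. Of 18 macrophage markers all were tested, with summed signals of 224391 to 362000 at 10 min and 228768 to 329310 at 30 min. Granulocyte markers, 11 of 14 tested, summed to 6636 to 13540 and 6631 to 14980, and stromal markers, 11 of 12 tested, to 5920 to 12866 and 6115 to 10735. B and T lymphocyte markers (5 of 14 tested) summed to 311 to 1486 and 436 to 1404, erythroid markers (4 of 10) to 161 to 474 and 164 to 339, and dendritic cell markers (7 of 12) to 1699 to 3603 and 1764 to 3697. The ranges of the 10 and 30 min arrays overlapped for each of these lists. Of the granulocyte, lymphocyte, erythroid, stromal and dendritic cell markers 0 were called, and the macrophage list held 1 called gene, Cebpb. An unadjusted limma p under 0.05 was reached, in that order, by 2 of 11, 0 of 5, 1 of 4, 4 of 11 and 1 of 7. Over all 27110 tested probe sets 3249 reached it, and all but the lymphocyte list lay above that share.

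The targeted gene Il10 still gave a signal and rose with time. Under LPS the 3 arrays read 756, 819 and 1058 at 10 min and 1313, 1138 and 1960.4 at 30 min, and under LPS plus IL-10 they read 928, 769 and 1073 and 2857, 2500.3 and 3209. The 6 arrays at 30 min lay above the 6 at 10 min, with a pooled log2 change of 1.16 (SE 0.14, adjusted p = 0.000342). The change was larger with IL-10, by 0.91 (SE 0.14, adjusted p = 0.0334). Whether this probe set lies in the deleted part of the gene was not tested and no wild-type arrays are analysed here, so the signal checks no label.

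Among immediate early transcription factors 27 of 28 listed genes were tested and 9 rose, none fell, with a median log2 change of 0.33 over the brightest probe set of each. Egr1, a zinc finger factor induced through serum response elements, read 141, 306 and 773 at 10 min (lowest, median and highest of 6 arrays) and 637, 1483 and 2202 at 30 min. The 30 min arrays were higher in every pair, although the ranges met, with a log2 change of 2.02 (SE 0.26, adjusted p = 0.000819). Levels differed by experiment, and both 10 min arrays of experiment 1 (642 and 773) lay above both of experiment 2 (141 and 160.5).

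The AP-1 genes Fos, Junb and Jun rose too. Fos, which pairs with Jun proteins to form AP-1, read 6789, 8932 and 11971 at 10 min and 12596, 15169 and 17662 at 30 min. Its groups did not overlap, and the log2 change was 0.74 (SE 0.09, adjusted p = 0.000389). Junb had a log2 change of 0.86 (SE 0.09, adjusted p = 8.59e-05), with signals of 1132, 2328 and 2889 and then 2059, 3376 and 5645, and its ranges overlapped. Jun changed by 0.66 (SE 0.09, adjusted p = 0.00225) on its brightest probe set. Klf6, a Kruppel-like factor, was called on 3 of 5 tested probe sets at log2 changes of 0.34, 0.64 and 0.66. Id2, Id3 and Id1, which encode inhibitors of basic helix-loop-helix factors, changed by 0.42, 0.58 and 0.85, and Myc, the growth regulator, by 0.39 (adjusted p = 0.0444). The calls of Myc, Id1, Id3 and of the brightest probe sets of Id2 and Klf6 were each lost in at least 1 of 9 fits that left out an experiment (3 fits) or a single pair (6 fits). Without experiment 3 the log2 change of Id3 was 0.33 and that of the brightest Id2 probe set 0.23. Atf3, a stress-induced repressor of inflammatory genes, did not pass, with a log2 change of 0.03 (adjusted p = 0.917).

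Immediate early effectors, the induced genes that are not transcription factors, gave 9 called genes among 24 tested of 26, none lower, and a median log2 change of 0.40. Ier3, a stress-inducible regulator of cell survival, read 2358, 2944 and 3788 at 10 min and 7109.6, 10419 and 12930.5 at 30 min. All 30 min arrays lay above all 10 min arrays, with a log2 change of 1.75 (SE 0.12, adjusted p = 2.32e-06). Ier2, a nuclear protein of the same response, read 591, 663 and 1054 and then 1086, 1850.0 and 3507. These groups were apart as well, with a log2 change of 1.40 (SE 0.10, adjusted p = 3.87e-06). Ppp1r15a encodes GADD34, which brings a phosphatase to the translation factor eIF2alpha and restores protein synthesis. Its signals rose from 524, 711 and 882 to 991, 1502 and 1914 without overlap, a log2 change of 1.06 (SE 0.10, adjusted p = 6.47e-05). Btg2, an antiproliferative partner of the mRNA deadenylase, was called on both tested probe sets, at 1.27 and 1.18, of which the second kept its call in every fit without an experiment or a pair. Phlda1, Rnd3, Plk2, Gadd45a and Zfp36l1 changed by 0.85, 0.57, 0.47, 0.91 and 0.30. Gadd45a, a stress sensor of cell cycle arrest, was at 0.59 (adjusted p = 0.0841) without experiment 2, and Plk2 was not called without experiment 1 (adjusted p = 0.106) or experiment 3 (adjusted p = 0.0761). The brightest probe set of Zfp36l1, a relative of Zfp36, lost its call in 6 of those 9 fits.

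**Figure D2:**
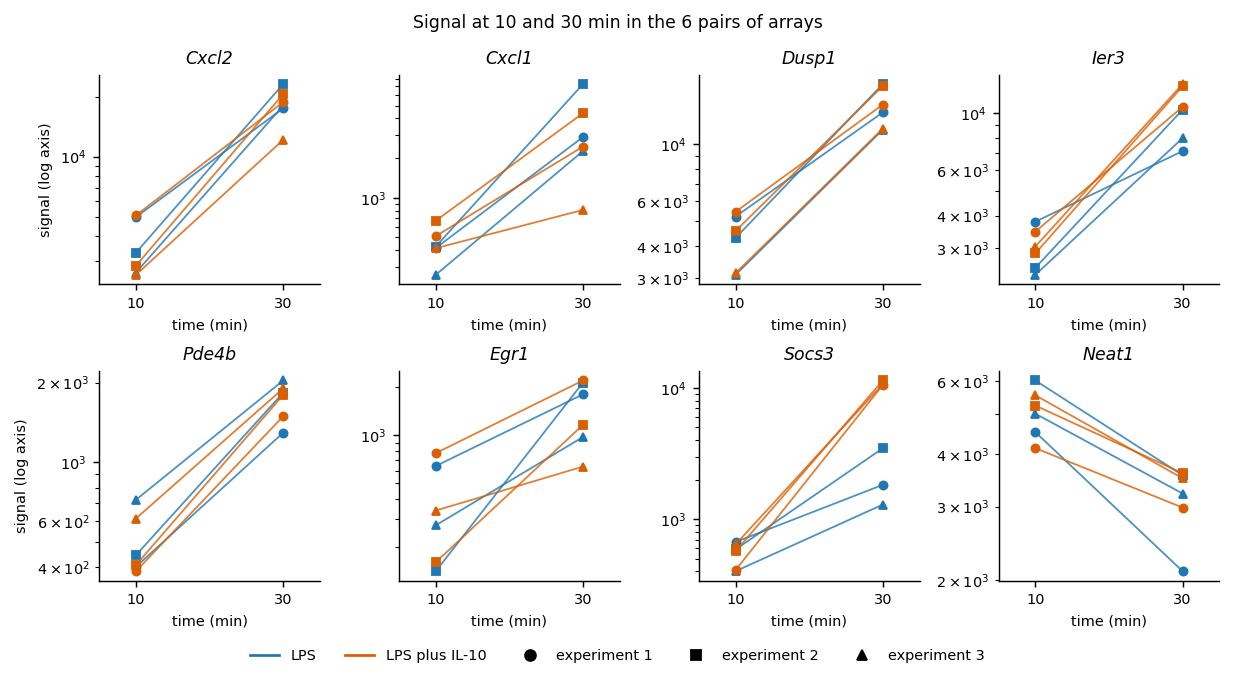
Signal on a log axis at 10 and 30 min for 8 genes, 1 line per pair of arrays, coloured by treatment and with a symbol per experiment. All 6 lines rise for the 7 rising genes and fall for Neat1. Socs3 parts by treatment at 30 min, with the 3 LPS plus IL-10 arrays between 10530 and 11388 and the 3 LPS arrays between 1292 and 3469.

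Cxcl1 and Cxcl2 had the largest called rises after Socs3. The CXC list, ligands that draw neutrophils and other leukocytes, had 12 of 14 members tested and 3 called, Cxcl1, Cxcl2 and Cxcl3, with a median log2 change of 0.19. These 3 genes are near neighbours on the chromosome. Their promoters from RefSeq (build GRCm38.p6), 250 bases before to 50 after the gene start, are shown because each carries NF-kB letters (GGG, then 2 bases of any kind, then TTTCC), in capitals on either strand, and because they moved together. Cxcl1 lies at chr5:90890995-90891294, Cxcl2 at chr5:90903649-90903948 and Cxcl3 at chr5:90785851-90786150, all on the plus strand.
Cxcl1: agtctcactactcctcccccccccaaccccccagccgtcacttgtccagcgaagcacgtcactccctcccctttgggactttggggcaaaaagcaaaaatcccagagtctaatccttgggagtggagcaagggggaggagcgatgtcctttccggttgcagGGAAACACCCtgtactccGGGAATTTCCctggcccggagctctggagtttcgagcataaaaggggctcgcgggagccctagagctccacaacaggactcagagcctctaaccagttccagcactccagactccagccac
Cxcl2: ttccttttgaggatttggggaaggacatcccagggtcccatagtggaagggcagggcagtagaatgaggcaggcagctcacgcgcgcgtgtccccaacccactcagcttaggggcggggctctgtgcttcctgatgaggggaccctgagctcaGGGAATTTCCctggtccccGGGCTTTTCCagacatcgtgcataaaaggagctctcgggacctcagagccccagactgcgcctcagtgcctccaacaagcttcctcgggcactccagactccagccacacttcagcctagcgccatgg
Cxcl3: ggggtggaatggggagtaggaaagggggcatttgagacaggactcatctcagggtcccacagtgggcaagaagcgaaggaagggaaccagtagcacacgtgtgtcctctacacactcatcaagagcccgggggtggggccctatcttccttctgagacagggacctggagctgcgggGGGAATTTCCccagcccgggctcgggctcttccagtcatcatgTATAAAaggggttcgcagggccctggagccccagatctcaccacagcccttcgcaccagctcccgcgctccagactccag
In Cxcl1 the matches begin at -89 and -71 from the gene start and in Cxcl2 at -97 and -78. Cxcl3 has 1 match, at -73, and its other capitals at -30 are a TATA box (TATAAA).

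Cxcl2, also called MIP-2, read 2552, 3066 and 5070.0 at 10 min and 12154, 18423 and 23138 at 30 min. The lowest 30 min array, of LPS plus IL-10 in experiment 3, was above the highest 10 min array, and the log2 change was 2.40 (SE 0.12, adjusted p = 7.39e-08). Cxcl1, or KC, read 259.9, 420.4 and 669 and then 808, 2669 and 7299. Its groups did not overlap either, but the 30 min arrays spread widely, from 807.9 in the LPS plus IL-10 array of experiment 3 to 7299 in the LPS array of experiment 2. The log2 change of Cxcl1 was 2.62 (SE 0.25, adjusted p = 6.84e-05) on the brightest of 3 probe sets, all of them called. Cxcl3 rose in all 6 pairs by 1.04 (SE 0.20, adjusted p = 0.0248), with overlapping signals of 49.4, 348 and 840.2 and 139, 935 and 1148, and its call was lost in 5 of 9 fits that each left out an experiment or a pair, among them those without experiment 1 and without experiment 2.

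CC chemokines, which mostly draw monocytes and lymphocytes, had the highest list median, 0.59, over 10 tested of 14, and 5 genes were called. Ccl3, which encodes MIP-1alpha, read 1389, 1758 and 2249.5 at 10 min and 2512, 4111 and 7509.8 at 30 min. No 30 min array was as low as the highest at 10 min, and the log2 change was 1.25 (SE 0.15, adjusted p = 0.000389). Its neighbour Ccl4, which encodes MIP-1beta, changed by 1.12 (SE 0.16, adjusted p = 0.00196). Ccl7 (MCP-3) read 215, 967 and 3487 and then 549, 3428 and 5729.8, with ranges that overlapped broadly. All 6 of its pairs rose nevertheless, with a log2 change of 1.43 (SE 0.15, adjusted p = 0.00014). Its neighbour Ccl2 (MCP-1) changed by 0.81 (SE 0.13, adjusted p = 0.00527), and by 0.71 without experiment 2 (adjusted p = 0.117). Ccrl2, an atypical receptor that binds chemerin, changed by 0.81 (SE 0.15, adjusted p = 0.0193), a call lost in 6 of these 9 fits.

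Among TNF family members, interleukins and growth factors 14 of 27 were bright enough to test, all 14 had a log2 change above 0, and 5 were called higher, with a median log2 change of 0.25. Of all tested probe sets 43.3% had a log2 change above 0, and 0.830% of named genes were called higher. A dim member could pass the brightness filter through its 30 min arrays alone, so the count above 0 is no separate support. Tnf, the first cytokine of the LPS response, read 334, 1692 and 3157 at 10 min and 811, 6102 and 9683 at 30 min. The ranges overlapped, and its level differed between experiments, from 3157 under LPS at 10 min in experiment 1 to 334 in experiment 3, but every pair rose. The pooled log2 change was 1.70 (SE 0.20, adjusted p = 0.000388). It was 2.26 under LPS and 1.15 under LPS plus IL-10, a difference of -1.11 (95% interval -1.73 to -0.49, adjusted p = 0.987) that did not pass.

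Il1b, the precursor of IL-1beta, read 104, 177 and 421 and then 256, 1084 and 1167, with overlap. It rose in every pair by 1.85 (SE 0.19, adjusted p = 0.000114). Tnfsf9, which encodes the costimulatory ligand 4-1BBL, read 280.3, 362 and 731 and then 772, 1484 and 2187 without overlap, a log2 change of 1.73 (SE 0.18, adjusted p = 0.000139). The antagonist of the IL-1 receptor, Il1rn, was called on only 1 of 3 tested probe sets, at 0.42 (adjusted p = 0.0243), whereas the brightest was at 0.10 (adjusted p = 0.59). The call was lost in 6 of the 9 fits without an experiment or a pair.

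The NF-kB feedback and adaptor list gave 5 called genes of 24 tested out of 26, with a median log2 change of 0.18. Nfkbiz, which encodes the nuclear inhibitor IkB-zeta, read 1199.7, 2109.7 and 3653 at 10 min and 1873, 5529 and 7154 at 30 min on its brightest probe set. The ranges overlapped, and the log2 change was 1.12 (SE 0.09, adjusted p = 1.48e-05), with 1.04 and 1.74 on the other 2 probe sets. Tnfaip3, the ubiquitin-editing inhibitor A20, changed by 0.78 (SE 0.09, adjusted p = 0.00034) on its brightest probe set and by 1.34 on the other. Traf1, an adaptor of TNF receptors, read 268, 314 and 382 and then 365, 909 and 1906. These ranges overlapped by a little, and the log2 change was 1.47 (SE 0.19, adjusted p = 0.000934). The other tested probe set of Traf1 was at 0.02 (adjusted p = 0.959). Bcl3, an atypical IkB protein, was at 0.35 (adjusted p = 0.0409), a call lost in all 9 fits without an experiment or a pair.

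Nfkbia, which encodes the NF-kB inhibitor IkB-alpha, differed by probe set. Of 5 tested, 3 were called higher, at log2 changes of 0.52 (SE 0.05, adjusted p = 0.000114), 0.51 (SE 0.05, adjusted p = 6.47e-05) and 0.63 (SE 0.08, adjusted p = 0.000979). The brightest probe set, at 18125, 22794 and 27959.5 at 10 min and 19699.8, 23892 and 27699 at 30 min, had a log2 change of 0.07 (adjusted p = 0.719). Which of these probe sets follows the transcript was not tested.

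MAP kinase phosphatases, which switch off ERK, p38 and JNK, were called in 3 of 15 tested genes of 16 (median 0.17), and mRNA decay factors in 5 of 13 tested of 14 (median 0.06). Dusp1, the phosphatase that ends p38 signalling in LPS-treated macrophages, read 3098, 4448 and 5443 at 10 min and 11368, 13742 and 17093 at 30 min. The groups were far apart and the log2 change was 1.72 (SE 0.08, adjusted p = 3.58e-08), 1.73 under LPS and 1.71 under LPS plus IL-10. The difference between treatments was -0.03 (95% interval -0.39 to 0.34, adjusted p = 1). Dusp2, a nuclear phosphatase of ERK, read 63.7, 82.7 and 120.3 and then 166, 256 and 428, again without overlap. At 10 min Dusp2 spanned the array medians of that time, 76.9 to 93.1, and its 30 min arrays alone sufficed for the brightness filter. The lack of overlap is thus no added support. Its log2 change was 1.47 (SE 0.17, adjusted p = 0.000295), and that of Dusp5 was 1.20 (SE 0.15, adjusted p = 0.000659). Zfp36 encodes tristetraprolin, which binds AU-rich elements of Tnf and other transcripts and has them degraded. It read 2009.5, 3573 and 4279 and then 4772, 8294 and 11202, with all 30 min arrays above all 10 min arrays and a log2 change of 1.33 (SE 0.09, adjusted p = 1.74e-06). Zc3h12a, the endonuclease Regnase-1, and its relative Zc3h12c changed by 0.52 (adjusted p = 0.0258) and 0.45 (adjusted p = 0.0325), and each lost its call in 7 of 9 fits without an experiment or a pair. The remaining called members of the decay list, Btg2 and Zfp36l1, are given above.

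The promoters of Dusp1 and Zfp36 are shown for the response elements they carry beside the NF-kB-bearing chemokine promoters above. In Dusp1 (chr17:26508423-26508722, minus strand) the capitals mark a cyclic AMP response element, TGACGTCA, at -143. In Zfp36 (chr7:28379179-28379478, minus strand) they mark a CArG box, the motif of serum response factor, at -58 and a STAT motif, TTCNNNGAA, at -17.
Dusp1: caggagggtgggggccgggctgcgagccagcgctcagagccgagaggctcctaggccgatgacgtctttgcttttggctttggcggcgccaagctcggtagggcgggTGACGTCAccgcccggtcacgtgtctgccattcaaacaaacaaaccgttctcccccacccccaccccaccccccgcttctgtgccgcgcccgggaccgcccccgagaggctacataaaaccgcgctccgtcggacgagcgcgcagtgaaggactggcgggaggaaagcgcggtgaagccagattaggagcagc
Zfp36: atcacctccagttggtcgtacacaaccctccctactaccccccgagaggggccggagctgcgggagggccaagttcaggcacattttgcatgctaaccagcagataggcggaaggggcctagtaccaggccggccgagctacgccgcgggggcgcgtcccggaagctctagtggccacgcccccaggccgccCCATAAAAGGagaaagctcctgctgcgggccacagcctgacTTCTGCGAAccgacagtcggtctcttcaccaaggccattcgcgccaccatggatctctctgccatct

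In the prostaglandin and cyclic AMP list 3 of 10 tested genes of 14 were called, with a median of 0.06. Pde4b, the cyclic AMP phosphodiesterase that sustains Tnf output after LPS, read 387, 427 and 721 at 10 min and 1293, 1815 and 2039 at 30 min. The 2 groups did not overlap. Its log2 change was 1.79 (SE 0.08, adjusted p = 3.58e-08), with 0.75 and 0.64 on 2 further called probe sets of the 4 tested. Ptgs2, the inducible cyclooxygenase COX-2, read 66.1, 156 and 268 and then 192, 615 and 1338. Its ranges overlapped, and it rose in all 6 pairs by 1.93 (SE 0.21, adjusted p = 0.00014). Ptger4, the prostaglandin E2 receptor EP4, was called on a dimmer probe set at 0.60 (adjusted p = 0.0385), and its brightest was at 0.44 (adjusted p = 0.11). The call was lost in 7 of the 9 fits without an experiment or a pair.

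**Figure D3:**
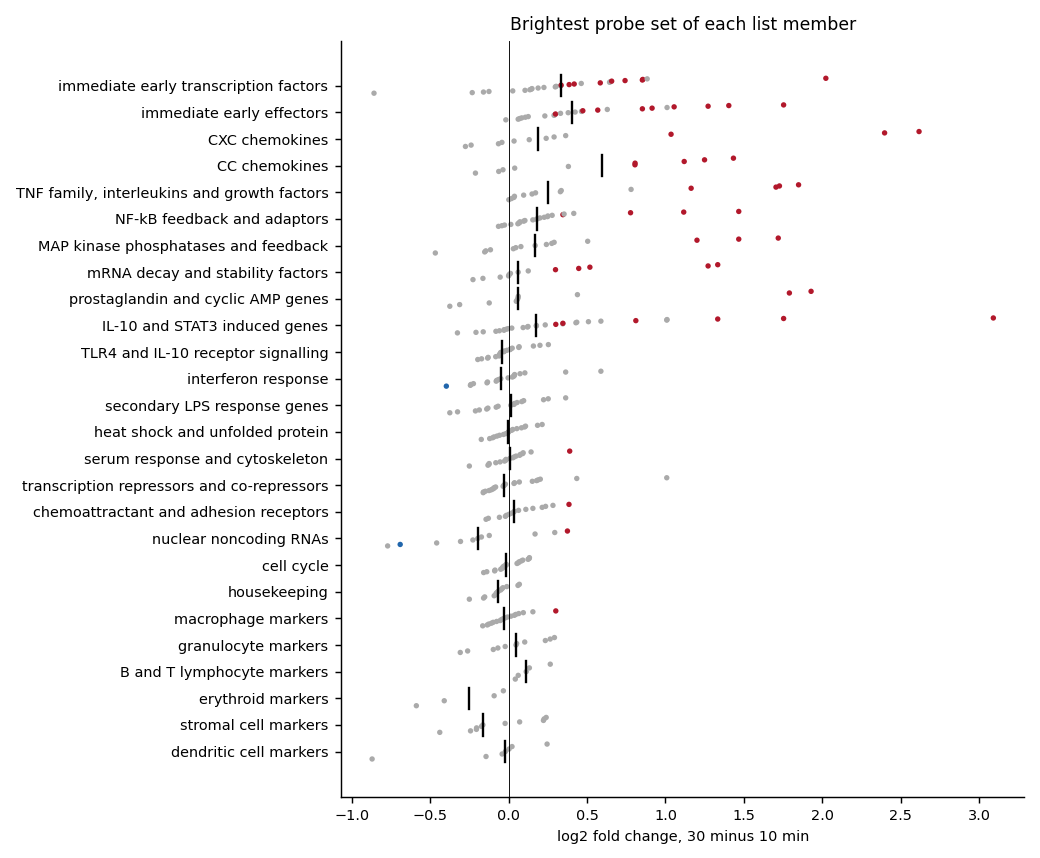
Log2 change from 10 to 30 min of the brightest tested probe set of every list member, 1 row per list, red where called higher, blue where called lower and grey otherwise, with a black bar at the list median. The medians run from -0.25 for erythroid markers to 0.59 for CC chemokines, and the rows from TLR4 and IL-10 receptor signalling downwards hold few coloured points.

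Of 30 genes listed as induced by IL-10 and STAT3, 29 were tested and 8 rose. The median log2 change was 0.18 when pooled, 0.06 under LPS and 0.35 under LPS plus IL-10. The list was drawn up with earlier results of these data known and holds Socs3, Sbno2, Etv3 and Gadd45g, whose treatment differences were called. Its medians are thus no separate support for a difference between treatments. Socs3, the suppressor of cytokine signalling that STAT3 induces, read 670.1, 588 and 402 in the 3 LPS arrays at 10 min and 1827, 3469 and 1292 at 30 min. Under LPS plus IL-10 it read 409.8, 569.9 and 643 and then 10529.9, 11388 and 10701. The groups at 10 and 30 min did not overlap, and within 30 min every array with IL-10 lay above every array without it. The pooled log2 change was 3.09 (SE 0.34, adjusted p = 0.000191), made up of 1.87 under LPS and 4.31 under LPS plus IL-10, and these differed by 2.45 (SE 0.23, adjusted p = 0.000437). Both other Socs3 probe sets were called too, at pooled log2 changes of 3.24 and 2.92. The Socs3 promoter (RefSeq, chr11:117969317-117969616, minus strand) is shown for its STAT motif at -154, in capitals.
Socs3: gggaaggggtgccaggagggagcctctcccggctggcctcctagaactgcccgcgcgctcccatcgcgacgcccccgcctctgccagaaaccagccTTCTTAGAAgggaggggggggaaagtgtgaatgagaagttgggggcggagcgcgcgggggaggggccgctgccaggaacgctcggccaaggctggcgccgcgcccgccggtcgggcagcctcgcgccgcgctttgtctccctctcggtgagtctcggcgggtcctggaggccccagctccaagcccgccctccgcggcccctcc

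The test of the difference between treatments called 9 probe sets in which the change was larger with IL-10 (0.0332% of those tested) and 0 in which it was smaller. At an unadjusted limma p under 0.05 stood 1143 of 27110 probe sets, a share below the 0.05 that arises where none differ. Without experiment 3 the 9 became 4, and without the replicate block or without the intensity trend they became 0. The 9 belonged to 5 genes. Apart from Socs3 and Il10 these were Sbno2, Etv3 and Gadd45g, and 5 of the 9 probe sets were also among the 146 of the pooled comparison. Sbno2, a corepressor induced by IL-10, read 367, 564 and 331 under LPS at 10 min and 309, 441 and 350.5 at 30 min, so that its LPS arrays overlapped. With IL-10 it read 399, 508 and 473 and then 1994, 2480.0 and 1977, with no overlap. The pooled log2 change of 1.01 did not pass (adjusted p = 0.2), and the treatments differed by 2.35 (SE 0.17, adjusted p = 4.09e-05). Gadd45g, a stress gene of the Gadd45 family, likewise missed the pooled test at 1.01 (adjusted p = 0.0626), with 0.22 under LPS, 1.80 under LPS plus IL-10 and a difference of 1.58 (SE 0.20, adjusted p = 0.00807). The pooled fit counted a treatment difference as residual spread, which widened its SE for genes such as Sbno2 and Gadd45g. Their misses are thus no sign that the average of both treatments stayed flat. Etv3, an ETS-family repressor, was called on a dimmer probe set, at 0.60 under LPS and 1.99 with IL-10 and a difference of 1.39 (SE 0.14, adjusted p = 0.000827). Its brightest probe set had a pooled log2 change of 0.43 (adjusted p = 0.0806).

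The other called members of the IL-10 and STAT3 list were Bcl3, Ier3 and Zfp36, given above, and Cebpb, Mt1 and Pim1. Pim1, a serine kinase, changed by 0.81 (SE 0.11, adjusted p = 0.000874) on its brightest probe set. Cebpb, a factor of macrophage maturation, changed by 0.30 (adjusted p = 0.0295), and by 0.45 (adjusted p = 0.00261) on a second probe set that kept its call in every fit without an experiment or a pair. Metallothionein Mt1 was called only on a dim probe set, from 36.0, 67.2 and 91.8 to 74.8, 267 and 484, a log2 change of 1.56 (SE 0.26, adjusted p = 0.0084), and its brightest probe set was at 0.18 (adjusted p = 0.169). The 10 min median of the dim set lay below every array median of that time, 76.9 to 93.1, so its passing of the brightness filter could lean on the later arrays. Without experiment 1 the dim set was at 1.45 (adjusted p = 0.105). Irf1, an interferon regulatory factor, was not called at 0.59 (adjusted p = 0.104), nor was Stat3 itself at -0.03 (adjusted p = 0.899).

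Beyond Socs3, Il10, Etv3, Sbno2 and Gadd45g no difference between treatments passed. The intervals given here are those of single probe sets, not adjusted for the number tested. For Cxcl2 the difference was -0.14 (95% interval -0.68 to 0.41, adjusted p = 1), and for Pde4b 0.16 (95% interval -0.21 to 0.53, adjusted p = 1). For Cxcl1 it was -1.33 (95% interval -2.14 to -0.53, adjusted p = 1), with 3.28 under LPS and 1.95 under LPS plus IL-10. Rgs1, a regulator of G-protein signalling, also had a lower estimate with IL-10, 0.52 against 1.55, a difference of -1.03 (95% interval -1.64 to -0.42, adjusted p = 1).

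The remaining lists gave no or few calls in the limma test. The list of TLR4 and IL-10 receptor signalling had 0 called of 22 tested out of 29 (median -0.04), with 5 at an unadjusted limma p under 0.05. Over all 27110 tested probe sets 3249 were under 0.05 unadjusted. Secondary LPS response genes, which need new protein synthesis, had 0 of 17 tested out of 23 (median 0.01, 4 unadjusted). Heat shock and unfolded protein genes had 0 of 19 out of 20 (median -0.00, 2 unadjusted), and cell cycle genes 0 of 19 out of 20 (median -0.01, 3 unadjusted). Interferon response genes had 1 called of 19 tested out of 22, Stat2, which was lower at -0.40 (adjusted p = 0.0323), with a median of -0.05. Serum response and cytoskeleton genes had 1 of 19, Filip1l at 0.39 (adjusted p = 0.0157). The list of transcription repressors had 2 of 22 tested, Etv3 and Zeb2, neither on its brightest probe set. Zeb2 was at 0.35 (adjusted p = 0.0202) on 1 of 5 tested probe sets and at 0.15 (adjusted p = 0.566) on the brightest. The list of chemoattractant and adhesion receptors had 1 higher, the proton-sensing receptor Gpr65 at 0.39 (adjusted p = 0.0167), and 1 lower, Nrp1. Housekeeping genes had 1 of 14 tested out of 18, a dim probe set of the transferrin receptor Tfrc at 0.53 (adjusted p = 0.0272), and a list median of -0.07. Actb itself was at -0.25 (adjusted p = 0.232). The calls of Stat2, Filip1l, Zeb2, Gpr65 and Tfrc were each lost in at least 6 of the 9 fits without an experiment or a pair.

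Further rising genes lay outside the lists. Cd69, a lectin and early activation marker, read 141, 280.1 and 301 at 10 min and 288, 422 and 962 at 30 min. Its ranges overlapped slightly, and the log2 change was 1.05 (SE 0.17, adjusted p = 0.00738). Rgs1 changed by 1.03 (SE 0.19, adjusted p = 0.0188), Gpr84, a receptor for medium-chain fatty acids, by 0.68 (adjusted p = 0.0228), and Prdm1, the repressor Blimp-1, by 0.55 (adjusted p = 0.0337). Clec4e, the receptor Mincle, was called on a dimmer probe set at 0.62 (adjusted p = 0.0148), and its brightest was at 0.16 (adjusted p = 0.523). Calls of Cd69, Rgs1, Gpr84, Prdm1 and Clec4e were lost in 2, 3, 6, 7 and 5 of the 9 fits without an experiment or a pair. The splicing factor Rbm39 was called on 5 of its 12 tested probe sets, none of them its brightest, at log2 changes of 0.56 to 0.76. The brightest Rbm39 probe set was at -0.07 (adjusted p = 0.716). These genes outside the lists were named after their values were seen.

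Some rising genes lie close together in the order of protein-coding genes along a chromosome. Among the 99 that could be placed, 5 groups had members within 5 places of each other. They were Cxcl3, Cxcl1 and Cxcl2, then Ccl2 with Ccl7, Ccl3 with Ccl4, Rgs1 with Ptgs2, and Tiparp with Ccnl1. Among the 33 falling genes that could be placed there was no such group. Fewer genes give fewer neighbours, and no number for genes placed at random was computed, so these counts are not compared.

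Of the 63 falling probe sets 24 (38.1%) carried no gene symbol, against 13.6% of all tested probe sets and 11.0% of the rising ones. Their median signal at 10 min was 485.6, against 636.5 for the rising ones and 290.4 for all tested probe sets. Neat1, the nuclear noncoding RNA that builds paraspeckles, read 4139.9, 5119 and 6008 at 10 min and 2102, 3365 and 3606 at 30 min. All 30 min arrays lay below all 10 min arrays, and the log2 change was -0.69 (SE 0.07, adjusted p = 0.000114) on its brighter probe set. Clk1, a kinase of splicing factors, read 3049, 3421 and 3847 and then 2436, 2555 and 2765, also without overlap. It changed by -0.39 (SE 0.05, adjusted p = 0.00159). Gas5, a host of small nucleolar RNAs, was lower on 1 of 4 tested probe sets, at -0.53 (SE 0.08, adjusted p = 0.00327), and its brightest was at -0.12 (adjusted p = 0.44). Without experiment 1 the falling Gas5 probe set was at -0.43 (adjusted p = 0.0818). The nuclear noncoding RNA list as a whole had 11 of 12 tested and a median of -0.20, with Gas5 and Neat1 called lower and Mir22hg and Snhg1 called higher, at 0.38 and, on a dimmer probe set of Snhg1, 0.67. The call of Mir22hg was lost without experiment 2 or 3, and that of Snhg1 without experiment 1 or 2.

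Txnip, an inhibitor of thioredoxin and of glucose uptake, was lower on both tested probe sets, at -0.52 (SE 0.08, adjusted p = 0.00416) and -0.47 (adjusted p = 0.0127). On the brighter of them it read 6229, 8152 and 8591 and then 4485, 4947 and 6946, with an overlap of the ranges. Rgs2, a regulator of Gq signalling, was lower on 3 of 4 tested probe sets, at -0.35, -0.38 and -0.42, each of them losing its call in at least 2 of the 9 fits without an experiment or a pair. Evi2a, a membrane protein gene within an intron of Nf1, was lower on a dimmer probe set at -0.49 (SE 0.06, adjusted p = 0.000743). Nrp1, a coreceptor of semaphorins and VEGF, was lower on 1 of 4 tested probe sets at -0.84 (SE 0.14, adjusted p = 0.00901), while its brightest was at 0.03 (adjusted p = 0.903). Without experiment 2 the falling Nrp1 probe set was at -0.58 (adjusted p = 0.133).

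AI854703 read 60.5, 105 and 156 at 10 min and 13.0, 32.5 and 53.8 at 30 min, without overlap. All its 30 min signals lay below the array medians of that time, 77.3 to 86.9. Of the arrays compared, only those at 10 min could therefore carry it through the brightness filter, and the lack of overlap is no added support. Its log2 change was -1.39 (SE 0.29, adjusted p = 0.0367) on 1 of 3 tested probe sets, a call lost in 8 of 9 fits without an experiment or a pair. The brightest probe set of AI854703 was at 0.68 (adjusted p = 0.519). Pou5f2, Rad52, Supt20, Setd3, Chchd7, Dtl and H3c4 had log2 changes of -0.94, -0.84, -0.84, -0.83, -0.79, -0.78 and -0.76, on probe sets that were the brightest of their gene for Pou5f2 and H3c4 alone, and each lost its call in at least 2 of those 9 fits. Of the 63 falling probe sets 6 kept the call in all 9, among them those of Neat1, Clk1, Evi2a and the brighter one of Txnip.

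**Figure D4:**
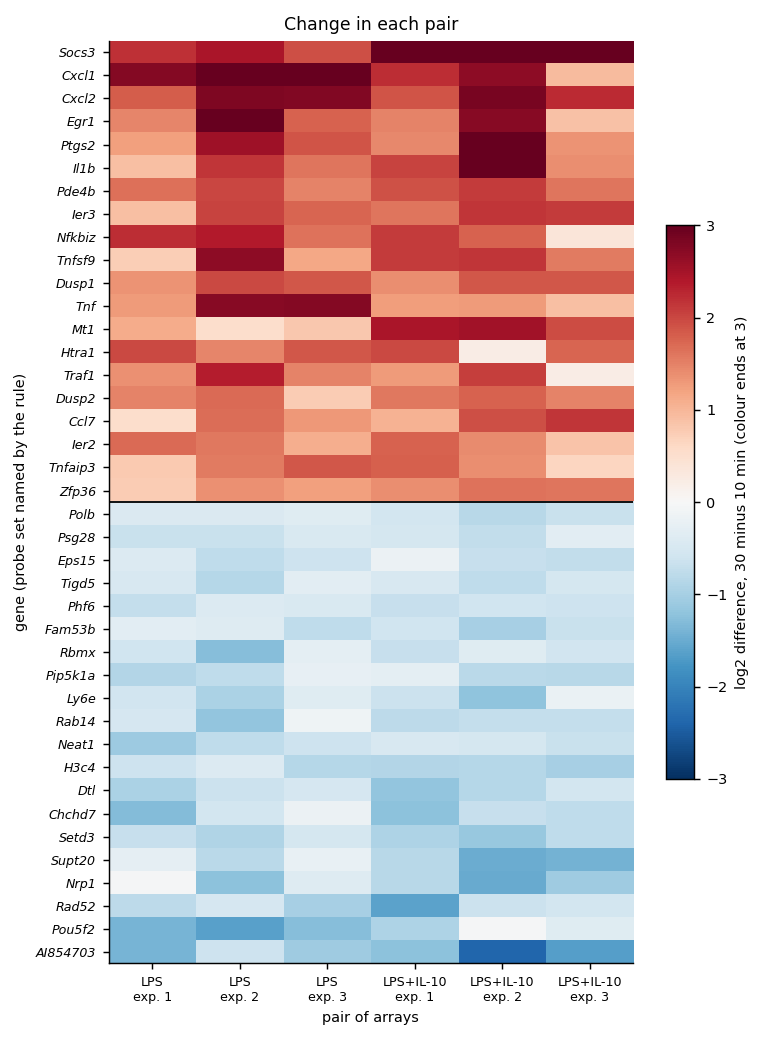
Log2 difference between the 30 and the 10 min array in each of the 6 pairs (columns) for 20 rising and 20 falling genes (rows), on a colour scale that ends at 3 in both directions. Rows are the largest called changes among probe sets with the same sign in all 6 pairs. The probe set shown need not be the brightest of its gene. By that choice the rising rows are red in every pair and the falling rows blue, with single pale cells such as Nfkbiz in experiment 3 under LPS plus IL-10, at 0.37.

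Probe sets of a gene often disagreed on whether it was called. The brightest probe set was called in 70 of the 104 rising genes and 15 of the 36 falling genes. In the other 34 rising genes the brightest had a median log2 change of 0.07, and in the other 21 falling genes of -0.02. At least 2 probe sets were called in 15 rising genes, among them Cxcl1, Socs3, Nfkbiz, Nfkbia, Jun and Pim1, and in 2 falling genes, Rgs2 and Txnip. What the dimmer probe sets read was not tested.

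The arrays at 20 min took no part in the fit and are given as levels with no test. They did count in the brightness filter and in the choice of the brightest probe set of a gene. The LPS arrays of experiments 2 and 3 at that time stood apart, with lower quartiles of signal of 38.7 and 34.1 against 21.9 to 31.1 on the other 16 arrays, so each 20 min median is given with and without them. Cxcl2 had a median signal of 10103 at 20 min (9261 without them), between its medians at 10 and 30 min. Dusp1 had 9986 (9405), and Ier3 5844 (6342). Pde4b had 792 (691) and Egr1 730.5 (730.5). All 5 medians lay between those at 10 and 30 min. Neat1, at 3369.8 (3098), was already near its 30 min median of 3365, or below it without these arrays.

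A search of the RefSeq promoters found 86 of the 104 rising genes (118 windows of 300 bases, since some genes have several starts) and 27 of the 36 falling genes (33 windows), and 12938 windows of tested genes served as the background. Motifs were sought on both strands. The NF-kB letters given above, chosen after the values were seen, stood in 11.0% of windows of rising genes, in 1.7% of those of tested genes and in 0 of 33 of falling genes. The 11 rising genes with a match were Anxa4, Cxcl1, Cxcl2, Cxcl3, Dusp5, Il1rn, Nfkbia, Rasgef1b, Tank, Tmem29 and Tnfaip3. The looser letters GGG, then 5 bases of any kind, then CC, which include every match of the stricter ones, stood in 66.9% of windows of rising, 66.1% of tested and 78.8% of falling genes. The TATA box stood in 16.9%, 7.8% and 9.1%, and the CArG box in 3.4%, 1.3% and 3.0%. Shares were 5.9%, 5.6% and 3.0% for AP-1 (TGANTCA), 4.2%, 2.9% and 6.1% for the cyclic AMP response element and 8.5%, 6.9% and 6.1% for the STAT motif. These shares describe letters within 300 bases and were not tested.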

How the data were processed

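Total RNA of each culture was labelled as biotin cRNA and hybridised to Affymetrix mouse arrays, per the labels' protocols. The authors deposited 1 linear intensity per probe set and array. The submitters' processing notes name GCOS 1.4. How GCOS computed the signal is not stated in these sources. The trimmed mean was near 500 on every array, so a change of total RNA per cell would not show.

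Samples were grouped by the treatment and time in their titles. Values were analysed as log2(signal + 16), which understates changes of dim probe sets. Tested probe sets were those at or above an array's median signal on 3 or more arrays. The model was limma 3.58.1 in R 4.3.3 (lmFit, then eBayes with an intensity trend), on the 12 arrays with time and the pair as a block (5 residual degrees of freedom), and again with a time-by-treatment term (4). P-values were two-sided and adjusted by Benjamini-Hochberg over 27110 probe sets. With 3 arrays per group the number of arrays limits precision. P-values of the pooled test measure the spread of the 6 pair differences, taken as independent although they come from 3 experiments. That spread includes any difference between the treatments. Those of the treatment test measure the spread between pairs within a treatment. The pairing comes from the labels, and the deviations of the 6 pairs from their group means correlated at 0.284 to 0.558. Arrays of the same experiment but the other treatment correlated as highly, at 0.334 to 0.603, and those of different experiments at -0.408 to 0.00246, so the values show the shared experiment and not the pair within it. No arrays were duplicates: at most 104 values were equal in any of 153 pairs of arrays.

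Gene names are those of the platform annotation, some of which may be outdated: 34958 probe sets had 1 symbol, 932 several and 9211 none. A gene is given by its brightest tested probe set unless another is named. Genes named were drawn from the 20 largest called changes in each direction, called and brightest members of 26 lists, a fixed panel and the called treatment differences. Not every gene so chosen is given in the text. The members and lists were chosen with earlier results of these data known. Procedures were tested on simulated data. Other settings were pseudocounts, filters, quantile normalisation, other blocks and leaving out experiments or pairs.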

Additional observations from a re-analysis of the deposited data

Results flagged for a closer look

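In 4 of 109 probe sets checked, 1 pair lay far from the other 5, where chance gives about 1 in 20. The pair difference, 30 minus 10 min on the log2 scale, of Dusp2 was 0.77 under LPS in experiment 3, below the other 5. That of a dim Htra1 probe set was 0.212 under LPS plus IL-10 in experiment 2, also below the others. This Htra1 probe set had a mean signal of 27.2 at 10 min and was called at a log2 change of 1.54 (adjusted p = 0.0362). The call was kept in only 2 of 9 fits without an experiment or a pair, and the brightest Htra1 probe set was at 0.02 (adjusted p = 0.989). For a dimmer Nfkbia probe set the LPS pair of experiment 2 stood above the others at 1.05, and for a dimmer Nfkbiz probe set the LPS plus IL-10 pair of experiment 3 stood below them at 0.371.

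The change from 10 to 30 min differed between the treatments, by the test of that difference, in 9 probe sets, each time with the larger rise under LPS plus IL-10. The differences on the log2 scale were 1.39 for Etv3, 1.58 for Gadd45g and 0.907 for Il10. The 3 probe sets of Sbno2 gave 2.35, 1.77 and 1.55, and those of Socs3 gave 2.09, 2.45 and 2.13.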

How the results depend on the processing

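All 146 rising and 63 falling probe sets kept their sign in each of the 21 other settings that tested them. Settings that alter only the trend, the block or the treatment term leave the log2 change as it is, so no sign could move there. The remaining settings reuse the pairs that gave the calls. Many calls depended on the model. Without the replicate block 15 were higher and 1 lower, of which 14 and 1 were among the main calls, and 0 treatment differences passed. Without the intensity trend 12 were higher (11 shared) and 4 lower (1 shared), and 0 treatment differences passed. A fit to all 18 arrays called 76 and 19. Averaging both treatments within an experiment left 37 lower. Leaving out an experiment or a pair gave 78 to 153 higher, 18 to 62 lower and 4 to 9 treatment differences. In these 9 fits 61 rising probe sets of 38 genes passed each time. In all 21 settings 6 passed, of Cxcl1, Cxcl2, Dusp1, Ier3, Pde4b and 1 without a symbol, and 0 of the falling ones did. The unblocked count at an unadjusted limma p under 0.05 was 979, against 3249 with the block. Pseudocounts of 1 and 64, no filter, a filter at the 75th percentile, quantile normalisation, the experiment as block or random block and an added treatment term, chosen after seeing the data, kept both counts within 1.5 times. Why the counts moved was not tested. Without detection calls a dim signal cannot be told from background.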
